A study of Mus musculus with 9 samples.

Results

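Genes of DNA replication and mitosis are a standard readout of how actively a tumour divides, and 38 of them were followed here in MC38 tumours with and without CD43. The 38 were taken by gene symbol from the 42454 names in the count tables, 19 of them genes of S phase, when DNA is copied, and 19 genes of mitosis, when the copies are parted. All 38 passed the filter on low counts, among 18243 names tested. They were taken by name and not by a threshold on their values, though with earlier results of these data known. MC38 is a mouse colorectal carcinoma cell line, grown here in C57BL/6J mice, and whole tumours were taken 21 days after inoculation for bulk RNA sequencing. The control group (Vec, genotype WT) was 4 tumours of vector MC38 cells, and the other group (CD43-KO, genotype CD43 KO) was 5 tumours of MC38 cells lacking CD43. The gene of CD43 is Spn, and its product is a heavily glycosylated surface protein best known from leukocytes. Both groups were labelled alike apart from the genotype of the cells, and no drug was named for either. Whether the knockout cells were 1 clone or a pool was not given in the sources used here, nor were the age and sex of the mice.

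Cells commit to S phase when E2F transcription factors are released from retinoblastoma proteins and switch on cyclin E, the licensing factors and the replication enzymes. Licensing loads the MCM2-7 helicase on replication origins, and the GINS complex, the polymerases and the sliding clamp PCNA then build the fork. Genes of mitosis are switched on later, by MYB-MuvB and FOXM1 acting with NF-Y, through a promoter element called CHR that the DREAM repressor occupies in resting cells. The RNA of a whole tumour mixes cancer and host cells, so fewer dividing cells and less RNA per dividing cell cannot be told apart.

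Promoters of both classes held motifs of these factors, and 6 are shown, 3 of them from subunits of the replicative helicase and 3 from genes of mitosis whose values are given later. The sequences are from RefSeq (GRCm38.p6), 5′ to 3′ on the strand of the gene, and run from 120 bases before to 30 after the start of the transcript. Capitals mark E2F motifs (TTTCCCGC, TTTGGCGC, TTTCGCGC or TTTGCCGC), CHR motifs (TTTGAA or TTCGAA) and CCAAT, the NF-Y motif, on either strand, and neighbouring motifs can overlap. The Mcm3 window is chr1:20820283-20820432, Mcm6 is chr1:128359676-128359825, Mcm7 (the first of 2 listed starts) is chr5:138171854-138172003, Ccnb2 is chr9:70421525-70421674, Cdk1 is chr10:69352883-69353032 and Top2a is chr11:99024160-99024309, each on the minus strand.
Mcm3: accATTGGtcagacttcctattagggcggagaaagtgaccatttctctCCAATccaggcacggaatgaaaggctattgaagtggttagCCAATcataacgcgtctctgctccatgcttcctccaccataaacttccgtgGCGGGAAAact
Mcm6: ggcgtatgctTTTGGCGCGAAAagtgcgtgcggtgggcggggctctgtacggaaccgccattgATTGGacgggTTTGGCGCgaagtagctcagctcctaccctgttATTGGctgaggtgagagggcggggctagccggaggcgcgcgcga
Mcm7: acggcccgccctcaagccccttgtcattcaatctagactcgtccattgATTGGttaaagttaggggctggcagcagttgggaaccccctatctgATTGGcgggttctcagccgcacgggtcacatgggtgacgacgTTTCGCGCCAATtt
Ccnb2: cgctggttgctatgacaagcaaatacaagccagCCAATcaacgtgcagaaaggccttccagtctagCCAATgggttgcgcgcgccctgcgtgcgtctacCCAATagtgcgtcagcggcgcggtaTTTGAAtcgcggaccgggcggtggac
Cdk1: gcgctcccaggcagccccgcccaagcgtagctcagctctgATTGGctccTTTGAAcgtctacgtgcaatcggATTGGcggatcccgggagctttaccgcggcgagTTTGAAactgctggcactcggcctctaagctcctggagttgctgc
Top2a: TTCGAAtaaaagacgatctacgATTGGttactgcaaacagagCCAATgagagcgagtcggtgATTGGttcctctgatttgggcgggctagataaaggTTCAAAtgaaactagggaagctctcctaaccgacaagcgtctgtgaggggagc

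The 3 helicase promoters shown were picked because they hold an E2F motif together with CCAAT, and the 3 mitotic ones hold CHR motifs together with CCAAT. In the same window Mcm2 held a CHR motif with no E2F motif or CCAAT, and Mcm5 held CCAAT with no E2F motif. Over the 29 members with a RefSeq promoter, searched from 250 bases before to 50 after the start, a CHR motif was in 12 of 15 mitotic and 2 of 14 S-phase promoters, against 21.7% of all 27025 promoters. An E2F motif was in 7 of 14 S-phase promoters and 1 of 15 mitotic promoters, against 2.6% of all. CCAAT was in 14 of 15 mitotic and 9 of 14 S-phase promoters, against 41.1% of all, and 12 of the 15 mitotic promoters held CHR and CCAAT together, against 9.65%. These letters are short and the counts are a description. In the 150 bases before the start alone, CHR was in 33.3% of the mitotic promoters, each time with CCAAT, against 11.2% of all. E2F was in 28.6% of the S-phase promoters in that shorter window, against 1.44% of all.

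Library totals ranged from 60751738 to 72114385 counts in Vec and from 44814061 to 62194418 in CD43-KO, where CD43-KO 3 was the lowest. TMM scaling multiplied the library totals by 0.891 in Vec 4 and by 0.961 to 1.064 in the other 8 tumours. The scaled levels of Vec 4 were thus raised the most. On principal component 1, CD43-KO 3 lay farthest out at 100 and CD43-KO 2 next at 51.2, with the remaining tumours at -45.6 to 2.13. Spn itself read 41, 43.7, 44.6 and 53.8 in Vec and 25.6, 33.6, 31.2, 23 and 6.81 in CD43-KO, in CPM (counts scaled to library size), in tissue that also holds host cells. Its groups did not overlap, and its edgeR log2 fold change was -0.93 ± 0.36 (SE; adjusted p = 0.28). Summed markers of leukocytes (10 genes, 9 of them with a fold change above 0) lay between 655 and 822 CPM in Vec and between 618 and 1720 in CD43-KO, with CD43-KO 1, 2 and 3 above every Vec tumour. Summed skeletal muscle markers (12 genes) were 1390 CPM in CD43-KO 3 and 84.7 to 147 in the other 8, and adipocyte markers (10 genes) were 778 CPM against 37.9 to 92.2. Of 11 epithelial markers of carcinoma, 6 were tested, Cdx2 was at 0, Krt8, Krt18, Cldn7 and Vil1 were under 0.1 CPM on average, and Cdh1 averaged 11.1 CPM. The part of these other cell types in the members' values was not tested.

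None of the members was called different between the groups by the main test. In edgeR's quasi-likelihood test, none of the 38 passed an adjusted p of 0.05, and none of the 18243 names did (0% called), the smallest adjusted p of a member being 0.254. At an unadjusted p under 0.05, 6 members were higher in CD43-KO (Ccne2, Cdc6, Pola1, Pole, Rrm2 and Top2a), where 7.75% of all names were, and 2 were lower (Gins2 and Ccnb2), where 7.63% were. DESeq2 called 0 members and 3.35% of all names, and limma's voom with quality weights called 1 member (Pole, adjusted p = 0.0499) and 2.72% of all names. No member separated the groups without overlap, while 5.59% of all names did. On the log2 scale the members' fold changes, CD43-KO over Vec, lay between -0.37 and 0.39 with a median of 0.05, and 24 of 38 were above 0. Over all names the median was 0.03 and 54% were above 0. Over the 8642 names in the members' range of levels, the median was -0.006 and 48.8% were above 0.

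More genes of S phase than of mitosis had an estimate above 0, and that difference was not tested. Of the S-phase members, 14 of 19 were above 0, their median log2 fold change was 0.09, and 5 were higher and 1 lower at an unadjusted p under 0.05. Of the mitotic members, 10 of 19 were above 0, with a median of 0.00, and 1 was higher and 1 lower. The members varied from tumour to tumour about as much as other names of their level. Their median coefficient of variation over the 9 tumours was 13.0%, against 14.0% for the 8642 names in the same range of levels. For all names it was 20.4%. The lowest count of any member in any library was 739 (Ccne1), where counting error alone is 3.68%, so the spread between tumours sets the precision.

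**Figure D1:**
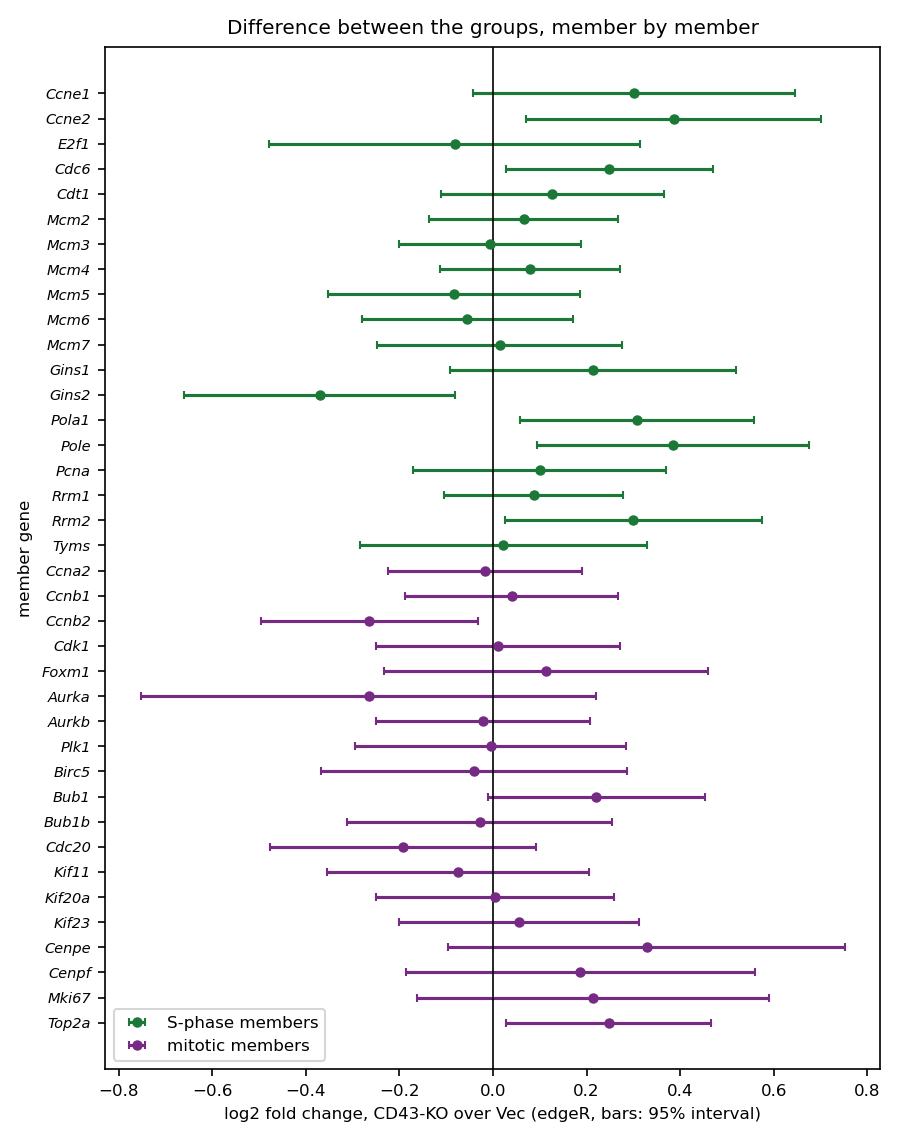
Log2 fold change of each of the 38 members, CD43-KO over Vec (horizontal axis, log2 units), with the 95% interval from edgeR's fit, grouped as S-phase and mitotic genes. The estimates lie between -0.37 (Gins2) and 0.39 (Ccne2), and the intervals of 8 members exclude 0 before adjustment over all names.

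Cyclin E2 had the highest fold change of all members. Ccne2, which with CDK2 drives entry into S phase, read 25.2, 19.8, 30.9 and 21 CPM in Vec 1 to 4 and 33.9, 27.6, 36.1, 29.7 and 31 CPM in CD43-KO 1 to 5. Only Vec 3 reached into the range of the knockout tumours, and 3 of the 5 knockout tumours were above every Vec tumour. Ccne2 had a log2 fold change of 0.39 ± 0.14 (SE), with an edgeR adjusted p of 0.27 and an unadjusted exact permutation p of 0.0476, two-sided, where 0.00794 is the smallest p that 4 against 5 tumours allow. Its paralogue Ccne1 differed by 0.30 ± 0.16, with CD43-KO 3 at 24 CPM and the other 4 knockout tumours at 16.9 to 18.1, and without CD43-KO 3 the difference was 0.19. E2f1, an activator E2F that is itself an E2F target, read 56, 60.1, 70.2 and 61.3 CPM in Vec and 67.1, 42.4, 70.1, 42.2 and 70.7 in CD43-KO. CD43-KO 2 and 4 lay below every Vec tumour, and the other knockout tumours were at 67.1 CPM or more, a level that Vec 3 alone of the Vec tumours reached. Its log2 fold change was -0.08 ± 0.18 (edgeR adjusted p = 0.841), and its 95% interval ran from -0.48 to 0.31.

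Most of the licensing genes had estimates close to 0. Mcm5, the subunit with the highest level per length, read 240, 255, 247 and 342 CPM in Vec and 255, 259, 222, 288 and 254 CPM in CD43-KO. After TMM scaling, which raised Vec 4 the most, Vec 4 was highest and the other 8 tumours lay within 222 to 288 CPM. Mcm5 differed by -0.08 ± 0.12 on the log2 scale (edgeR adjusted p = 0.756), and by 0.04 without Vec 4. The estimates of all 6 helicase subunits lay between -0.08 and 0.08, with a median coefficient of variation of 8.62%, the lowest of the groups of members described here. The 95% interval of Mcm3 ran from -0.20 to 0.19 and that of Mcm4 from -0.11 to 0.27.

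MCM2-7 is built from its subunits in equal number. Per kilobase of transcript, Mcm2, Mcm3, Mcm5, Mcm6 and Mcm7 had mean levels of 58.8 to 77.6 CPM, and Mcm4 had 26.9 CPM per kilobase. Both groups had Mcm5 highest and Mcm4 lowest: Mcm5 was at 80.2 and 75.6 CPM per kilobase in Vec and CD43-KO, and Mcm4 at 26.1 and 27.6. Mcm7 shares exon sequence with Ap4m1 and Cops6 on the opposite strand, and the strand setting of the counting was not given in the sources used here.

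Cdc6, which loads the helicase with the origin recognition complex, read 26.1, 29.9, 30 and 33.1 CPM in Vec and 35.5, 35.4, 31.3, 39.8 and 34.7 CPM in CD43-KO. All knockout tumours but CD43-KO 3 were above every Vec tumour. Cdc6 had a log2 fold change of 0.25 ± 0.10 (edgeR adjusted p = 0.291; exact permutation p = 0.0238, two-sided and unadjusted). Cdt1, its partner in loading, had an estimate of 0.13 ± 0.11.

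At the fork, the polymerases and a GINS subunit stood at opposite ends. Pole, the catalytic subunit of the leading-strand polymerase epsilon, read 49, 57.6, 49.7 and 49.9 CPM in Vec and 74.5, 74.3, 49.2, 74.9 and 63.4 CPM in CD43-KO. CD43-KO 3 lay among the Vec tumours, and the other 4 knockout tumours were above all of them. Pole had a log2 fold change of 0.39 ± 0.13, with an adjusted p of 0.254 in edgeR, 0.12 in DESeq2 and 0.0499 in voom. Without CD43-KO 3 it was 0.47 (edgeR adjusted p = 0.0919).

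Pola1, the catalytic subunit of the priming polymerase alpha, resembled Pole and is named after its values were seen. It read 87.8, 83.4, 105 and 79 CPM in Vec and 114, 107, 93.2, 108 and 127 CPM in CD43-KO, a log2 fold change of 0.31 ± 0.11 (edgeR adjusted p = 0.268). Here too 4 of 5 knockout tumours, all but CD43-KO 3, exceeded every Vec tumour. Pcna, the sliding clamp and the member with the highest level per length (266 CPM per kilobase), read 329, 363, 417 and 443 CPM in Vec and 403, 372, 508, 398 and 399 CPM in CD43-KO. Its groups overlapped widely apart from CD43-KO 3, the highest tumour. Pcna had a log2 fold change of 0.10 ± 0.12 (edgeR adjusted p = 0.706), which was 0.01 without CD43-KO 3.

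Gins2, a subunit of the GINS complex that activates the helicase, had the lowest fold change of all members and was also picked after its values were seen. It read 58.1, 56.3, 63.3 and 81 CPM in Vec and 42.5, 49.2, 57.7, 54.3 and 46.4 CPM in CD43-KO. Vec 4 was the highest tumour, and 4 of 5 knockout tumours lay below every Vec tumour. Gins2 had a log2 fold change of -0.37 ± 0.13 (edgeR adjusted p = 0.258), and -0.25 without Vec 4. Gins1, of the same complex, was at 0.21 ± 0.14, on the other side of 0, and at 0.11 without CD43-KO 3. Exons of Gins2 overlap Gse1, those of Ccne2 overlap Ints8 and those of Pole overlap Gm15792, each on the opposite strand. The same holds for Ccna2 with Exosc9, Cdc20 with Elovl1, Plk1 with Gm44985 and Kif20a with Cdc23, and Foxm1 overlaps Tex52 and Gm44596 on its own strand, so reads of these pairs may not be separable.

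**Figure D2:**
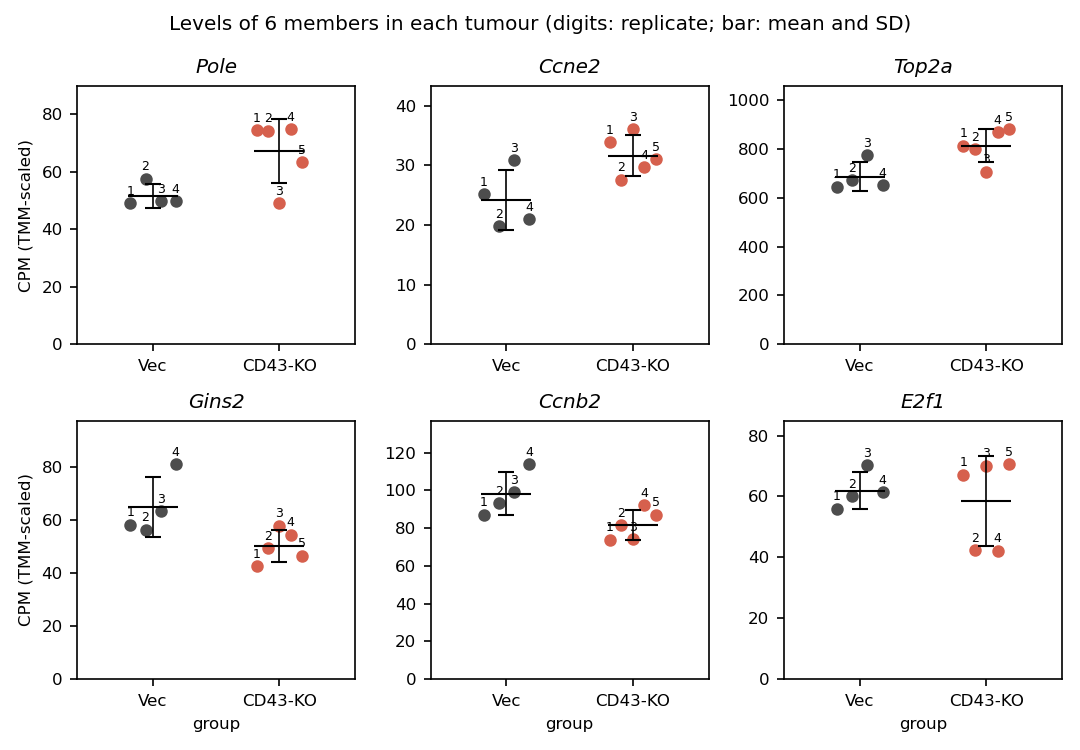
Levels of Ccne2, E2f1, Pole, Gins2, Ccnb2 and Top2a in each tumour (vertical axis, CPM after TMM scaling, from 0), with 4 Vec and 5 CD43-KO tumours as points and the mean ± SD of each group. In each panel at least 1 tumour of a group lies within the range of the other, and E2f1 shows the pair of low knockout tumours at 42.2 and 42.4 CPM.

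The nucleotide enzymes had estimates at or above 0 with all 9 tumours. Rrm2, the S-phase-limited subunit of ribonucleotide reductase, read 119, 127, 164 and 146 CPM in Vec and 183, 166, 201, 152 and 152 CPM in CD43-KO. Vec 3 lay inside the knockout range, and the other Vec tumours lay below it. Rrm2 had a log2 fold change of 0.30 ± 0.12 (edgeR adjusted p = 0.297; exact permutation p = 0.0714, two-sided and unadjusted). Rrm1, the large subunit of that enzyme, read 213, 227, 249 and 272 CPM in Vec and 248, 258, 253, 260 and 258 CPM in CD43-KO. The knockout tumours were tightly grouped inside the wider Vec range. Its log2 fold change was 0.09 ± 0.09 (edgeR adjusted p = 0.643). Tyms, which makes thymidylate, was at 0.02 ± 0.14, with CD43-KO 3 alone high at 97.2 CPM against 67.7 to 71.4 in the other knockout tumours, and at -0.10 without that tumour.

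Among the cyclins, Cdk1 and Foxm1, cyclin B2 had the estimate farthest from 0. Ccnb2, a partner of CDK1, read 87.1, 93.2, 98.9 and 114 CPM in Vec and 73.8, 81.4, 74.1, 92.1 and 87.1 CPM in CD43-KO. The ranges met between 87.1 and 92.1 CPM, with 3 knockout tumours below every Vec tumour. Ccnb2 had a log2 fold change of -0.26 ± 0.10 (edgeR adjusted p = 0.285; exact permutation p = 0.0397, two-sided and unadjusted), which was -0.19 without Vec 4 and -0.17 with library totals alone. Ccna2, the cyclin of S phase and early mitosis, read 246, 240, 285 and 275 CPM in Vec and 242, 230, 281, 270 and 269 CPM in CD43-KO. Both groups spanned nearly the same range. Its log2 fold change was -0.02 ± 0.09 (95% interval -0.22 to 0.19; edgeR adjusted p = 0.942).

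Ccnb1, the other B-type cyclin, was at 0.04 ± 0.10, and Cdk1, the kinase that both cyclins activate, was at 0.01 ± 0.12. Cyclin B and CDK1 act as a complex at mitotic entry, and of these 3 genes Ccnb2 alone had an interval that excluded 0. Foxm1, the factor that activates many mitotic promoters, was at 0.11 ± 0.16. Its highest and lowest tumours were both knockouts, CD43-KO 4 at 146 CPM and CD43-KO 3 at 75 CPM.

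Of the 7 mitotic kinases and checkpoint genes, 6 were below 0, and none of the 7 had an unadjusted p under 0.05. This count did not hold across settings: 3 were below 0 without Vec 4, and 2 (Aurka and Cdc20) when libraries were scaled by their totals alone. Cdc20, which activates the anaphase-promoting complex, read 178, 204, 185 and 248 CPM in Vec and 162, 175, 154, 215 and 184 CPM in CD43-KO. The groups overlapped, with Vec 4 highest and CD43-KO 3 lowest. Cdc20 had a log2 fold change of -0.19 ± 0.13 (edgeR adjusted p = 0.475), -0.09 without Vec 4 and -0.10 with library totals alone. Bub1, a kinase of the spindle checkpoint, which restrains Cdc20, was the 1 gene above 0, at 68.4, 64.1, 85 and 65.5 CPM in Vec and 78.9, 77.2, 77.3, 90.2 and 88.7 CPM in CD43-KO. Vec 3 lay among the knockout tumours and the other Vec tumours lay below them. Its log2 fold change was 0.22 ± 0.11 (edgeR adjusted p = 0.34). Aurka, the centrosomal Aurora kinase, was at -0.27 ± 0.22 and had the widest spread of any member, 49.9 to 114 CPM over the 9 tumours. Without Vec 4 its estimate was -0.08, without CD43-KO 3 -0.18, with library totals alone -0.16, and voom gave -0.08. Aurkb and Birc5 of the chromosomal passenger complex were at -0.02 ± 0.10 and -0.04 ± 0.15, Plk1 was at 0.00 ± 0.13 and the checkpoint kinase Bub1b at -0.03 ± 0.13.

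The kinesins of the spindle and midzone had estimates close to 0, and the 2 centromere proteins had estimates above 0. Kif11, which pushes spindle poles apart, was at -0.08 ± 0.13. A second name, Kif11_1, carried nearly the same counts (-0.07 ± 0.13), so Kif11 is uncertain. Kif20a and Kif23, motors of cytokinesis, were at 0.00 ± 0.12 and 0.06 ± 0.12. Cenpe, the kinesin of the kinetochore, read 102, 98.8, 132 and 71.7 CPM in Vec and 119, 117, 92.3, 153 and 153 CPM in CD43-KO. Vec 4 was the lowest tumour and CD43-KO 4 and 5 were the highest. Its log2 fold change was 0.33 ± 0.19 (edgeR adjusted p = 0.423) and was 0.19 without Vec 4. Cenpf, a large kinetochore protein, was at 0.19 ± 0.17, and at 0.06 without Vec 4.

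Top2a, the topoisomerase that untangles sister chromatids, read 645, 673, 773 and 652 CPM in Vec and 813, 799, 707, 868 and 881 CPM in CD43-KO. CD43-KO 3 was the only knockout tumour below the highest Vec tumour. Top2a had a log2 fold change of 0.25 ± 0.10 (edgeR adjusted p = 0.291; exact permutation p = 0.0397, two-sided and unadjusted). Mki67, which coats mitotic chromosomes and is the source of the Ki-67 proliferation stain, was picked after its values were seen. It read 336, 334, 414 and 258 CPM in Vec and 369, 336, 303, 447 and 488 CPM in CD43-KO, a log2 fold change of 0.21 ± 0.17 (edgeR adjusted p = 0.556). Vec 4 was lowest and CD43-KO 5 highest, with the other tumours interleaved, and without Vec 4 the log2 fold change was 0.10. Exact permutation p-values, two-sided and unadjusted, of the other members with values per tumour spanned a wide range. They were 0.532 for E2f1, 0.627 for Mcm5, 0.468 for Pcna, 0.27 for Rrm1, 0.817 for Ccna2 and 0.198 for Cdc20. They were 0.183 for Cenpe, 0.294 for Mki67, 0.0556 for Bub1, 0.0476 for Pole, 0.0397 for Pola1 and 0.0317 for Gins2.

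Averaged over members, the S-phase and mitotic classes ordered the tumours differently. The mean log2 CPM of the S-phase members was 6.37, 6.46, 6.56 and 6.64 in Vec 1 to 4 and 6.62, 6.58, 6.63, 6.65 and 6.59 in CD43-KO 1 to 5. By these means the knockout tumours were packed closely (SD 0.03, n = 5) at the upper end of the Vec range (SD 0.12, n = 4), and the means differed by 0.11. The median deviation of the S-phase members from their 9-tumour means was less closely packed. It ran from -0.05 (CD43-KO 3) to 0.108 (CD43-KO 4) in the knockout tumours, and from -0.178 (Vec 1) to 0.07 (Vec 4) in Vec. The mean of the mitotic members was 6.80, 6.88, 7.002 and 6.93 in Vec and 6.86, 6.88, 6.73, 7.13 and 7.05 in CD43-KO. Here the spread was wider among the knockout tumours (SD 0.16) than in Vec (SD 0.09), and the means differed by 0.03. The difference in spread was not tested.

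CD43-KO 3 was the tumour in which the mean levels of the classes lay closest together. The S-phase mean less the mitotic mean was -0.10 there and -0.48 to -0.23 in the other 8 tumours. It was the highest tumour for 6 members, all of S phase (Ccne1, Ccne2, Gins1, Pcna, Rrm2 and Tyms), and the lowest for 12, of which 9 were mitotic. Over the 19 S-phase members, the deviation in CD43-KO 3 from the 9-tumour mean correlated with log2 transcript length at r = -0.66. Over the 19 mitotic members that correlation was -0.026, and the part of length in these orders was not tested. CD43-KO 3 was also the tumour with the high muscle, adipocyte and leukocyte markers given with the library totals, and the part of those cells in its values was not tested. Without it, the S-phase means differed by 0.10 between the groups and the mitotic means by 0.08. CD43-KO 4 was the opposite, highest for 12 members, 8 of them mitotic, and its leukocyte markers were the lowest of the 9 tumours (618 CPM). Vec 1 was lowest for 13 members, 10 of them of S phase, and highest for 0.

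**Figure D3:**
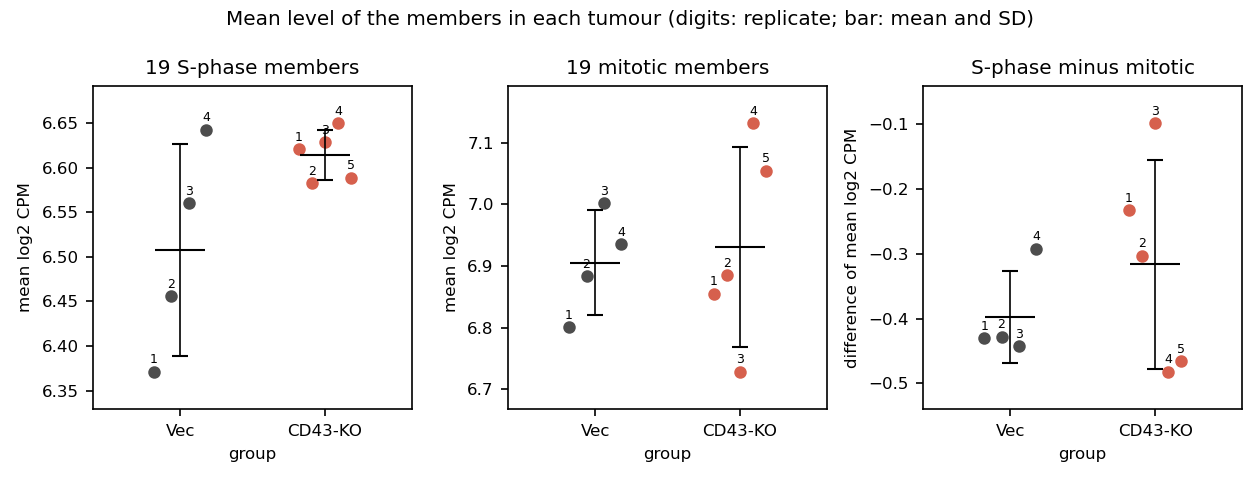
Mean log2 CPM over the 19 S-phase members and over the 19 mitotic members in each of the 4 Vec and 5 CD43-KO tumours, with the group means. The S-phase means of the knockout tumours lie within 6.58 to 6.65, and CD43-KO 3 has the lowest mitotic mean of all, 6.73.

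**Figure D4:**
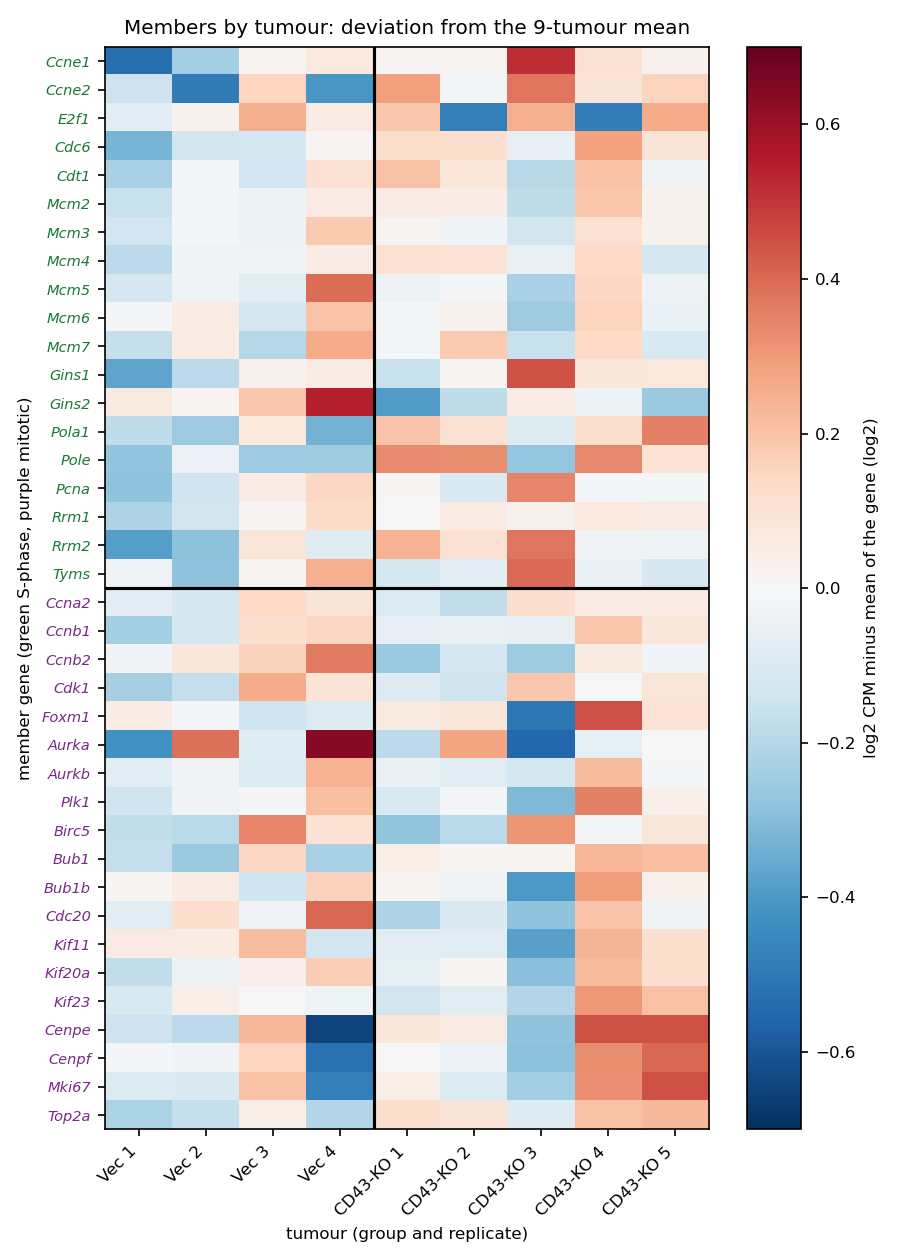
Deviation of each member (rows, by role) in each tumour (columns) from the member's mean over the 9 tumours, in log2 CPM. CD43-KO 3 is the highest tumour for 6 S-phase genes and the lowest for 9 mitotic genes, and Vec 4 is low for Cenpe, Cenpf and Mki67 while high for Aurka and Cdc20.

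Within the mitotic class the fold changes went with transcript length. Over the 19 mitotic members, the log2 fold change correlated with log2 transcript length at r = 0.784 (Spearman's rho 0.716), and over the 19 S-phase members at r = -0.029 (rho -0.042). With the GC content of the transcript it correlated in both classes, at -0.542 over the mitotic and -0.48 over the S-phase members. Over all 15582 tested names with a length, the correlation with GC content was -0.096. These are descriptions across genes that share the same 9 libraries. The longest transcripts, Cenpf (11.1 kb), Mki67 (10.1 kb) and Cenpe (7.91 kb), were at 0.19, 0.21 and 0.33. The shortest mitotic ones, Ccnb2 (1.53 kb), Cdc20 (1.79 kb) and Aurka (1.9 kb), were at -0.26, -0.19 and -0.27. Vec 4 and CD43-KO 5 showed the relation with length most among the 9 libraries: deviations of the mitotic members from their means correlated with length at -0.907 in Vec 4 and 0.896 in CD43-KO 5. Without Vec 4 the correlation of the mitotic fold changes with length was 0.515.

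Beyond the members the relation with length was weaker than over the mitotic members. Over all 38 members the fold change correlated with length at 0.338 (rho 0.304). Over all 15582 tested names with a length, the fold change correlated with it at 0.088 (rho 0.201). The deviation of Vec 4 correlated with it at -0.198 (rho -0.349). Over the 8229 of these names in the members' range of levels, these correlations were 0.241 (rho 0.356) and -0.501 (rho -0.586). Over the 15582 names, the median log2 fold change was -0.05 for transcripts under 1500 bases and 0.15 for those of at least 5000 bases, where the 6 members had a median of 0.28. Each library was also corrected for its own trend on length, a step added once the data had been seen. The correlation with length was then 0.295 over the mitotic members. Over the S-phase members it was -0.349, against -0.029 without the correction. Under that correction Mki67 was at 0.00, Cenpf at -0.04, Cenpe at 0.16, Top2a at 0.16 and Pole at 0.22, and Ccnb2 was at -0.16. Ccne2 was at 0.40 and Gins2 at -0.40 there, close to their uncorrected values, and no member passed the test.

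**Figure D5:**
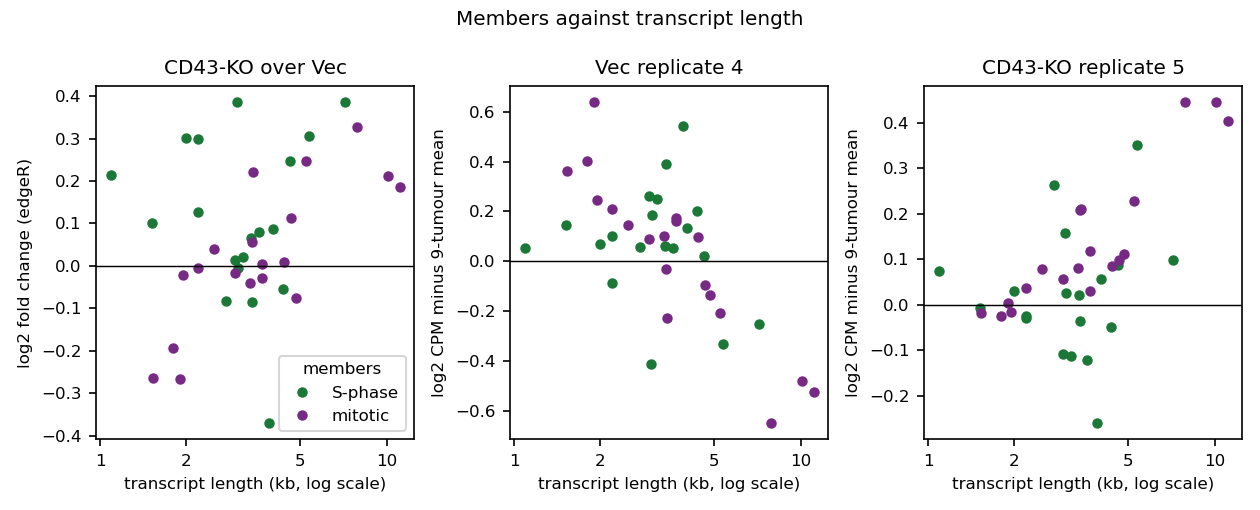
Log2 fold change, CD43-KO over Vec, against transcript length (kilobases, log axis) for the 38 members, with S-phase and mitotic genes marked. The mitotic genes run from -0.27 for short Aurka to 0.33 for long Cenpe, and the S-phase genes show no such order with length.

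The other genes of the pathway gave few calls beside the members. Of 52 further replication genes, 35 were above 0 with a median log2 fold change of 0.06. None passed in edgeR. At an unadjusted p under 0.05, 7 were higher and 0 lower, where 7.75% and 7.63% of all names were. The groups did not overlap for 5 of the 52, against 5.59% of all names. DESeq2, which called 3.35% of all names, called 2 of these genes, both higher. Voom, which called 2.72% of all names, called the same 2, also higher. Those were Wdhd1, which tethers polymerase alpha to the fork, and Clspn, the claspin adaptor of the fork and its checkpoint. Wdhd1 read 39.3 to 42.3 CPM in Vec and 48.4 to 53.7 in CD43-KO, without overlap (log2 fold change 0.29 ± 0.07; edgeR adjusted p = 0.192; DESeq2 adjusted p = 0.00599). Clspn read 33.7 to 44.6 CPM in Vec and 44 to 60.5 in CD43-KO (0.45 ± 0.12; edgeR adjusted p = 0.192; DESeq2 adjusted p = 0.0236). At the other end, Pold2 and Gins4, a polymerase delta subunit and a further GINS subunit, were at -0.24 ± 0.11 and -0.13 ± 0.10, and without Vec 4 at -0.15 and -0.06.

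Of 71 further mitotic genes tested, 41 were above 0 with a median of 0.04, and none passed in edgeR or DESeq2. At an unadjusted p under 0.05, 5 were higher and 4 lower, where 7.75% and 7.63% of all names were. The groups did not overlap for 2 of the 71, against 5.59% of all names. Espl1 (separase, the protease that opens the cohesin ring) was at 0.38 ± 0.14 and Pttg1 (securin, its inhibitor) at -0.32 ± 0.11, on opposite sides of 0, with edgeR adjusted p of 0.262 and 0.248. Arhgap11a was at 0.34 ± 0.11 and Bub3, a checkpoint partner of Bub1, at -0.25 ± 0.09, the latter without overlap between the groups and at -0.17 without Vec 4. Voom alone called Espl1 (adjusted p = 0.0426), and it called 2.72% of all names.

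Inhibitors upstream of the members included names that DESeq2 and voom called. Among 24 CDK inhibitors and p53 targets, 14 were above 0 with a median of 0.09, and none passed in edgeR. DESeq2, which called 3.35% of all names, called 5, all lower: Cdkn1b, Cdkn2c, Cdkn2d, Bbc3 and Phlda3. Voom, which called 2.72% of all names, called the same 5, also lower. The groups did not overlap for 5 of the 24, against 5.59% of all names. Of the other Cdkn genes listed, Cdkn1a was at 0.19 ± 0.12, Cdkn1c at 1.01 ± 0.55 and Cdkn2a at 0.97 ± 0.43. Cdkn2b was at -0.29 ± 0.36 and Cdkn3 at -0.16 ± 0.16. Cdkn1c, Cdkn2a and Cdkn2b averaged 3.14, 0.61 and 0.82 CPM. Cdkn2c (p18), an inhibitor of CDK4 and CDK6, read 79, 77.2, 60.7 and 80.6 CPM in Vec and 41.2, 40.4, 47.9, 52.1 and 39.3 CPM in CD43-KO. Every knockout tumour was below every Vec tumour. Cdkn2c had a log2 fold change of -0.75 ± 0.12, with an adjusted p of 0.125 in edgeR and 2.09e-05 in DESeq2. Cdkn1b (p27), an inhibitor of cyclin E and CDK2, read 126, 107, 95.1 and 114 CPM in Vec and 75.2, 74, 66.9, 79.9 and 72 CPM in CD43-KO, again without overlap. Its log2 fold change was -0.59 ± 0.10, with an adjusted p of 0.125 in edgeR and 2.94e-05 in DESeq2. Both genes passed in edgeR without Vec 3 (adjusted p = 0.0451), the lowest Vec tumour for each. They did not pass without Vec 1 (edgeR adjusted p = 0.385 for both) or Vec 2 (0.312 for both). Without Vec 4 the edgeR adjusted p was 0.287 for Cdkn2c and 0.29 for Cdkn1b. Zmat3 and Btg2, both p53 targets, were at 0.40 ± 0.14 and 0.87 ± 0.30, with edgeR adjusted p of 0.251 and 0.255. Btg2 was at 35.2 CPM in CD43-KO 3 and 11.9 to 21.6 in the other knockout tumours, and its estimate was 0.55 without CD43-KO 3.

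Of 30 genes of G1 and E2F control, 22 were above 0 with a median of 0.10, and none passed in edgeR. At an unadjusted p under 0.05, 5 were higher and 1 lower, where 7.75% and 7.63% of all names were. The groups did not overlap for 2 genes that were higher and for 1 (Lin37) that was lower, against 5.59% of all names. DESeq2, which called 3.35% of all names, called 1 of the 30. It was Cdc25a, the phosphatase that activates CDK2. Cdc25a read 23.7 to 29.7 CPM in Vec and 30.9 to 34.3 in CD43-KO (0.34 ± 0.09; edgeR adjusted p = 0.192; DESeq2 adjusted p = 0.0241). Voom, which called 2.72% of all names, called Cdc25a (voom adjusted p = 0.0388) and Mybl2 (voom adjusted p = 0.031). Mybl2 was at 0.32 ± 0.10 (edgeR adjusted p = 0.235). Lin9 and Lin37, both MuvB subunits of the complexes that read CHR promoters, were at 0.35 ± 0.11 and -0.35 ± 0.11, and Cdk4 was at -0.23 ± 0.11, or -0.13 without Vec 4.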

How the data were processed

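Bulk RNA was measured in 9 tumours, 4 Vec and 5 CD43-KO, 1 library each. The authors deposited whole-number counts per gene name for each library, per the file headers and values, not scaled to depth. Without role or order, HISAT2 2.1.0, StringTie 1.3.5, DESeq2 and the build GRCm38 are named per the submitters' processing notes. The counting tool, annotation and strand setting were not given in the sources used here. The labels give tumours of separate genotype but no batch or pairing, and replicates were numbered in order of deposition. The p-values set the difference between the groups against the spread between these tumours. Whether the knockout cells were 1 clone or a pool was not given, so the p-values do not cover differences between cell lines.

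The fits used R 4.3.3 and edgeR 4.0.16 (filterByExpr, minimum count 10, TMM scaling, robust quasi-likelihood test), adjusting by Benjamini-Hochberg over all 18243 names at a threshold of 0.05. DESeq2 1.42.0 and limma 3.58.1 were alternatives, as were other scalings and filters, added copy names and leaving out each tumour. Corrections for transcript length and GC content, and the length relation without each tumour, were chosen after seeing the data. The fits were tested on simulated data. Levels are TMM-scaled CPM, with a prior count of 2 on the log2 scale. Exact permutation tests took all 126 divisions of the 9 tumours. The exact p-values of the 38 members are not adjusted. Transcript lengths came from GENCODE models of GRCm38 paired with RefSeq, and promoters from RefSeq.

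The 38 members and the other lists were chosen with earlier results of these data known. Values per tumour are given, in each role group, for the member with the highest mean CPM and the one with the smallest edgeR p, and for any that passed. From each other list the pair with the smallest p in each direction is named, with any that passed edgeR or DESeq2. Pola1, Gins2 and Mki67 were added after their values were seen, and so were Mybl2, Cdkn1a, Cdkn1c, Cdkn2a, Cdkn2b and Cdkn3.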

Additional observations from a re-analysis of the deposited data

Results flagged for a closer look

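Over 82 sets of values within a group, 7 held a tumour far from the rest of its group, where chance gives about 1 in 20, or 4.1. In CD43-KO 3, Ccne1 was at 24 CPM with the other knockout tumours at 16.9 to 18.1, Pcna at 508 CPM with the others at 372 to 403, and Tyms at 97.2 CPM with the others at 67.7 to 71.4. All 3 are genes of S phase, and CD43-KO 3 had the lowest mitotic mean and the highest muscle and adipocyte markers. In CD43-KO 4, Aurkb was at 98.4 CPM with the others at 77.5 to 83.5. In Vec 4, Mcm5 was at 342 CPM with the other Vec tumours at 240 to 255. The S-phase mean less the mitotic mean was -0.292 in Vec 4 and -0.442 to -0.428 in the other Vec tumours. In Vec 2, Pole was at 57.6 CPM with the others at 49 to 49.9, still below 4 of the 5 knockout tumours.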

How the results depend on the processing

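No member passed edgeR's test under any alternative scaling, filter, length correction or left-out tumour, and voom called 1 (Pole). DESeq2 called 247 names higher and 365 lower and voom 165 and 332, against 0 in edgeR, where 1 was lower with no low-count filter; the cause was not tested. Scaling by library totals alone moved the median log2 fold change of all names by 0.085, and gave 16 mitotic members above 0, an S-phase median of 0.177 and a difference of S-phase means of 0.193. That scaling put E2f1 at 0.002, Mcm5 at 0.014 and Ccna2 at 0.068, and voom put Mcm5 at 0.017. The corrections for length and for length with GC content put Mki67 at -0.001 and -0.006. Leaving out 1 tumour at a time gave 0 to 8 names higher and 0 to 21 lower (most without Vec 3), 13 to 16 S-phase members above 0 and 6 (without CD43-KO 4) to 14 (without Vec 4) mitotic ones. The S-phase median then ran from 0.022 to 0.143, the mitotic median from -0.057 to 0.056, the difference of S-phase means from 0.05 to 0.145, that of mitotic means from -0.024 to 0.07, and the S-phase less mitotic difference from 0.027 to 0.122. Taking medians in place of means over the members put the last 2 differences at -0.03 and 0.178. Mcm5 ran from -0.149 to 0.04 (without Vec 4). E2f1 ran from -0.16 to 0.015 and 0.016 without CD43-KO 2 and 4. Ccna2 ran from -0.058 to 0.015, 0.001, 0.005 and 0.023 without Vec 3, Vec 4, CD43-KO 1 and CD43-KO 2. No paired analysis was possible because the labels give no replicate numbers that the groups share. Depth gave a counting error of 3.68% for the lowest member count, against a median spread of 13.0% between tumours.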
